A study of Mus musculus with 5 samples.

Results

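The genes described here are the ligands, receptors, antagonists and intracellular effectors of the Wnt pathway, read in hearts of mouse embryos with and without Lrrfip2. A probe set entered when its annotated symbol began with Wnt, Fzd, Sfrp, Dkk or Rspo and a digit, or was 1 of a fixed list of Dishevelled, Lrp, Lgr, Axin, Apc, β-catenin, Tcf/Lef, Nkd, Rnf43 and Znrf3 symbols. This gave 61 genes, each with 1 probe set, of the 23279 genes named on the array. They comprise 19 Wnt ligands, 7 R-spondins and Lgr receptors, 12 Frizzled and Lrp receptors, 8 secreted antagonists of the Sfrp and Dkk families, 3 Dishevelled genes, 4 genes of the β-catenin destruction complex with β-catenin itself, 4 feedback inhibitors and 3 Tcf/Lef factors. The remaining probe set reads Fzd10os, an antisense transcript that matched by its symbol alone and was kept apart from the receptors. Tcf7 was not analysed here.

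Wnt proteins are secreted lipid-modified signals that bind Frizzled receptors together with the co-receptors Lrp5 and Lrp6. In the canonical branch, Dishevelled then inhibits the complex of Axin, Apc and kinases that marks β-catenin for destruction, and β-catenin joins Tcf/Lef factors in the nucleus. Other branches act through cell polarity and calcium. In the forming heart, Wnt signals act in steps, and ligands such as Wnt5a and Wnt11 are known for their part in the outflow tract. Lrrfip2, the gene targeted here, makes a protein reported to bind Dishevelled, and the title of the series asks about its role in the hypoxia response of the forming heart.

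The 5 arrays came from untreated embryonic hearts at E10.5. In 3 the genotype is given as control and in 2 as KO, called knockout here; knockout arrays 1 and 2 are replicates 1 and 2 in the plots. The labels name no allele, strain, sex, deleted segment or Cre driver, and do not say whether a control is wild type or heterozygous. They also leave unsaid if hearts were pooled for a sample. P-values therefore measure the spread between these 5 samples, which may be technical. All levels are on the log2 scale after RMA, an array normalization. A difference is the knockout mean minus the control mean, so that 1 unit is a doubling. A level on 1 probe set cannot be set against the level on another, so the members are compared across arrays and not with each other.

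Lrrfip2 was at 7.33, 8.07 and 8.08 in control replicates 1, 2 and 3, and at 6.36 and 6.22 in knockout arrays 1 and 2. Both knockout arrays were below every control (difference -1.54 ± 0.28, SE; adjusted p 0.355 in limma). Whether the probe set lies in the deleted part is not given, so this checks the labels only in part. All 12 cardiomyocyte markers were above the dim level of 4.44 (the 40th percentile of gene means). The 2 knockout arrays differed from each other in cell markers. All 15 liver and gut endoderm markers measured had a higher knockout mean, and their summed level on the log2 scale was 8.62 to 8.72 in controls, 8.62 in knockout array 1 and 12.94 in knockout array 2. Of 12 macrophage and other blood cell markers, 7 of them above the dim level, 9 had a higher and 2 a lower knockout mean. Their sums were 8.44 to 8.58 in controls, 9.29 in knockout array 1 and 8.49 in knockout array 2. In knockout array 1 Cd68, Adgre1, Mrc1 and C1qb were within the control range, C1qa was below it and the other markers were above it. All 8 red blood cell markers measured had a lower knockout mean, with sums of 13.325 to 14.099 in controls and 13.392 and 13.583 in knockouts. Of 8 cushion mesenchyme markers 6 had a lower mean, with sums of 10.84 to 11.07 in controls, 10.66 and 10.79 in knockouts. A log2 array level has no true 0, so no marker can be called absent. In such whole-tissue samples, fewer cells of a type and less RNA per cell cannot be told apart.

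Across the pathway, few members separated the groups, and none passed the adjusted threshold. Of the 61 members, 48 were bright enough to be tested and 13 were dim. In limma with Benjamini-Hochberg adjustment over all 13967 genes tested, 0 members and 0 genes (0%) had an adjusted p under 0.05. At an unadjusted p under 0.05 there were 2 members, the receptor gene Fzd1 (higher) and the transcription factor gene Lef1 (lower). That is 4.17% of the members tested, against 8.78% of all genes tested (3.29% and 5.49% by direction). Control and knockout levels were fully apart, with no overlap, for 7 of the 48, or 14.6%, against 21.3% of all genes tested. Fzd1, Fzd4, Lrp6 and Dkk3 were the 4 higher ones (8.33%, against 8.18% of all genes), and Lef1, Wnt5a and Fzd3 the 3 lower ones (6.25%, against 13.1%). Read against all genes, the members were not called more often. A difference of at least 0.3 was found for 7 tested members, or 14.6%, against 15.4% of all genes. The knockout mean was the lower one for 31 of the 48 (64.6%, against 54.4% of all genes tested) and for 36 of all 61 (59.0%, against 51.9% of all genes). For 4 of the 61, Wnt3a, Rspo2, Rspo4 and Fzd8, all 5 arrays had 1 value, as they did for 869 of all 23279 genes (3.73%). With 3 arrays against 2, an exact permutation test of a single gene cannot give a p below 0.1.

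**Figure D1:**
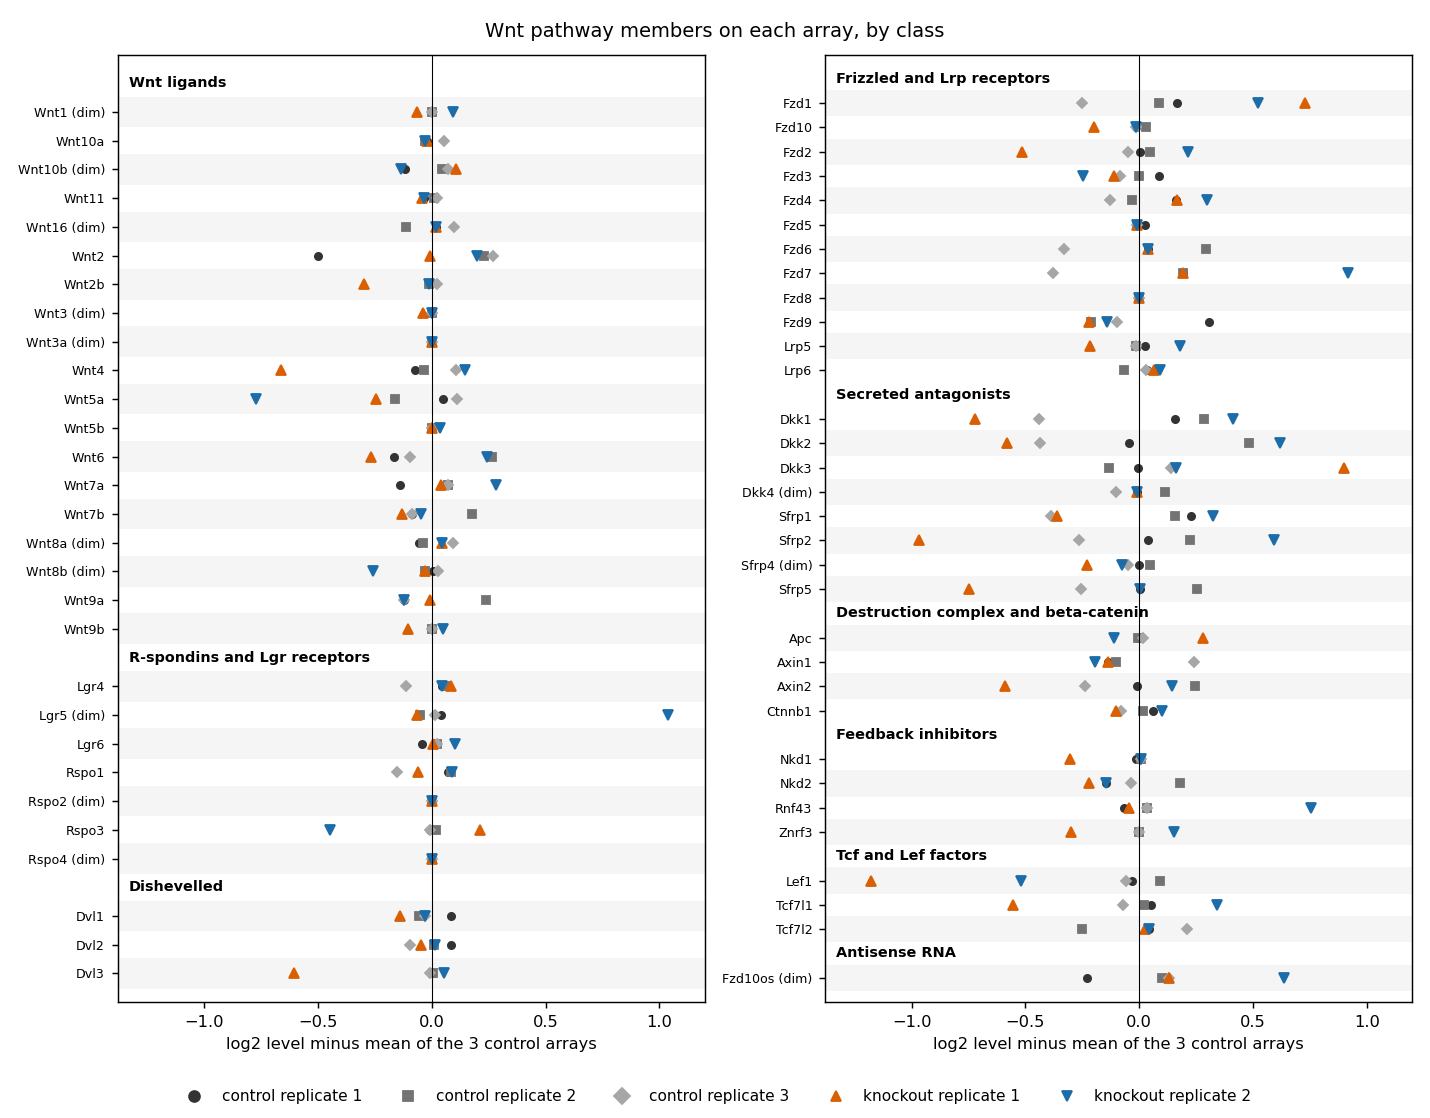
Each row is a Wnt pathway member and each mark 1 array, plotted as its log2 level minus the mean of the 3 control arrays (black and grey marks, controls; orange and blue triangles, knockout replicates 1 and 2). Lef1 and Wnt5a lie left of the controls in both knockout arrays and Fzd1 right of them, while Sfrp2, Dkk1, Dkk2 and Tcf7l1 have the knockout arrays on opposite sides.

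The 2 knockout arrays often lay on different sides of the controls. Knockout replicate 1 was below all 3 controls for 25 of 48 tested members (52.1%), against 33.9% of all genes tested, and above them for 7 (14.6%, against 26.6%). Knockout replicate 2 was above all controls for 22 members (45.8%, against 21.6%) and below them for 6 (12.5%, against 28.2%). For 11 members, or 22.9%, knockout array 1 was below and knockout array 2 above every control, a pattern found for 5.59% of all genes. These were Ctnnb1, Dkk1, Dkk2, Dvl3, Fzd2, Lrp5, Sfrp2, Tcf7l1, Wnt4, Wnt9b and Znrf3, named after their values were seen. Their margins were unequal. Sfrp2 was at 4.27 and 5.82 in knockout arrays 1 and 2, against 4.97 to 5.45 in controls. Ctnnb1 was at 9.66 and 9.86, against 9.68 to 9.82. Wnt9b was at 4.78 and 4.94, with all 3 controls tied at 4.89. The control SD was 0.0009 for Znrf3 and 0.0054 for Dvl3. The opposite pattern held for 2 members, Apc and Rspo3 (4.17%, against 5.94%). These shares are descriptions of 2 single arrays and were not tested. Knockout array 1 had the highest sum of macrophage and other blood cell markers, and knockout array 2 that of endoderm markers. Epicardial markers had a median shift of -0.04 and 0.31 in knockout arrays 1 and 2, against -0.17 to 0.08 in controls. The part of these cells in the pattern was not tested.

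**Figure D2:**
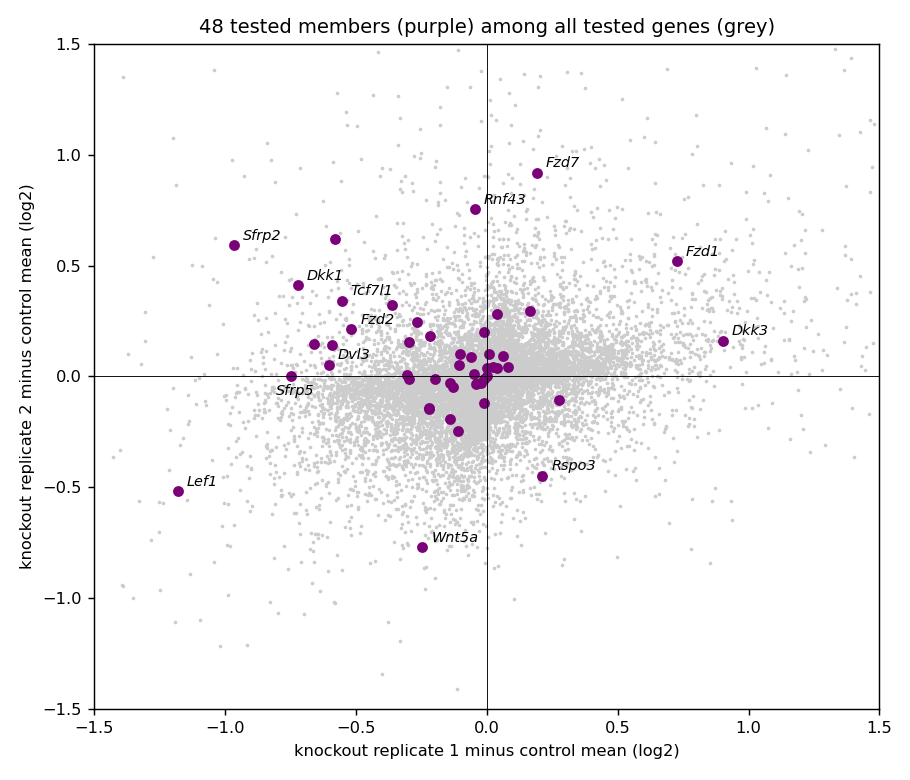
Each point is a gene, with its log2 level in knockout replicate 1 (horizontal axis) and knockout replicate 2 (vertical axis) minus the mean of the 3 controls; the 48 tested members are purple, all tested genes grey, and 116 genes lie outside the axes. Lef1 is far to the lower left and Fzd1 to the upper right, while Sfrp2, Dkk1 and Tcf7l1 lie in the upper left quadrant, low in 1 knockout array and high in the other.

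Promoters are shown for Fzd1 and Lef1 because they were the 2 members under an unadjusted p of 0.05. The sequences are the 250 bases before annotated starts in RefSeq, build GRCm38.p6, read 5′ to 3′ on the gene's strand, and they do not come from these samples. RefSeq gave 1 start for Fzd1 and 4 for Lef1, of which the first and the fourth along the gene are printed. Capitals mark matches to the core of the hypoxia response element (ACGTG or GCGTG) or of a Tcf/Lef site (CTTTGAA or CTTTGAT), searched on both strands; ACGTG overlaps its own reverse complement in CACGTG.
Fzd1, chr5:4758217-4758466, minus strand: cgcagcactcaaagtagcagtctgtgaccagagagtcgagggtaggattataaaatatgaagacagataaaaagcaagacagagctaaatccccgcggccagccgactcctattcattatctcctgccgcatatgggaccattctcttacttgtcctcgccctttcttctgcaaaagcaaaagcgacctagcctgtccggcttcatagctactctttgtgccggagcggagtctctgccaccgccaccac
Lef1 start 1, chr3:131110047-131110296, plus strand: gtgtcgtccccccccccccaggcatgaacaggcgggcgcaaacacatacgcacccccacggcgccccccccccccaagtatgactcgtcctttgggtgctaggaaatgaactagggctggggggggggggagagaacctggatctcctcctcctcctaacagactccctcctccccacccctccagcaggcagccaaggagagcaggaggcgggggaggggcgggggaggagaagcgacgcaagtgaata
Lef1 start 4, chr3:131156044-131156293, plus strand: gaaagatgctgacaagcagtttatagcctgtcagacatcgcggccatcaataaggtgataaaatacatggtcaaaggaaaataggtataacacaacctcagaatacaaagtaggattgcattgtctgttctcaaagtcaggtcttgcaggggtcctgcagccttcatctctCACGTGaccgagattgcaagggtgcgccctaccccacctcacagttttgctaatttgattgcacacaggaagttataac
The window at the fourth Lef1 start held CACGTG, counted as 2 matches because both strands match, and the other windows of these genes held 0 of either motif. A window was in the table for 40 of the 61 members, 49 windows in all. Of these, 3 (6.12%), in 3 members, held a Tcf/Lef core, against 7.48% of all 32851 windows. A hypoxia response core was in 30 of 49 (61.2%), against 38.6% of all windows. The member windows had a median GC content of 66.8%, against 52.4% of all windows, and the hypoxia core contains CG. The part of base composition in the share of hypoxia cores was not tested. A match is a match of letters and not a bound site.

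Wnt ligands start the signal, and none of those tested had an unadjusted p under 0.05 in limma. Of 19, 12 were bright enough to test. The dim ones were Wnt1, Wnt3, Wnt3a, Wnt8a, Wnt8b, Wnt10b and Wnt16. Over all 19, 6 had a higher and 12 a lower knockout mean and 1, Wnt3a, had the same value on all 5 arrays. The median difference was -0.02, with a range of -0.51 to 0.16, and the median over all genes was -0.01. The class shift, the median over the class of level minus control mean, was -0.03 in knockout array 1 and 0.00 in knockout array 2.

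Wnt5a, a ligand best known for β-catenin-independent signalling, was the ligand with the lowest difference. Its level was 5.98, 5.77 and 6.05 in control replicates 1 to 3 and 5.69 and 5.16 in the knockout arrays. Both knockout arrays were below every control, the second by more. Its mean was 1.42-fold lower (-0.51 ± 0.19, SE; unadjusted p 0.0584 and adjusted p 0.57 in limma). After centring each array on its median the unadjusted p was 0.047, and with array weights it was 0.0946 (limma). Without knockout array 1 the difference was -0.77 (unadjusted p 0.0178 in limma), without knockout array 2 it was -0.25 (0.201), and without 1 of the controls the p was 0.0803 to 0.161. Wnt4, a ligand with roles in kidney and gonad formation, was at 5.76, 5.80 and 5.94 in controls, 5.17 in knockout array 1 and 5.98 in knockout array 2. Here the first knockout array was below all controls and the second above them, and the difference of -0.26 ± 0.27 (SE) had an adjusted p of 0.676 in limma.

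Among other ligands known from the heart, Wnt11, a non-canonical ligand of the outflow tract, lay between 5.65 and 5.71 on all 5 arrays, with a difference of -0.04 and a 95% interval of -0.14 to 0.06. Wnt2, expressed by early cardiac progenitors, was at 5.35 in control replicate 1 and 5.84 to 6.11 elsewhere. Its lowest and highest values were both in controls, and the 95% interval of its difference was -0.70 to 0.89. Wnt2b was at 5.77 in knockout array 1 and 6.05 to 6.09 on the other 4 arrays. The other tested ligands, Wnt5b, Wnt6, Wnt7a, Wnt7b, Wnt9a, Wnt9b and Wnt10a, had differences of -0.09 (Wnt7b) to 0.16 (Wnt7a).

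R-spondins amplify Wnt signals by binding Lgr receptors, which relieves Frizzled receptors from removal by Rnf43 and Znrf3. Of these 7 genes, 4 had a higher and 1 a lower knockout mean, and Rspo2 and Rspo4 had 1 value on all 5 arrays. The median difference was 0.01. Rspo3, an R-spondin needed for vessel and heart development, was at 8.28, 8.31 and 8.28 in controls, 8.51 in knockout array 1 and 7.85 in knockout array 2. The controls were nearly equal and the knockout arrays lay on either side of them, so the mean difference of -0.12 ± 0.21 (SE; adjusted p 0.814 in limma) describes neither array. Lgr5, a receptor and canonical target, was dim in control replicates (3.55, 3.45 and 3.52) and knockout array 1 (3.44), and at 4.55 in knockout array 2. Only the array with endoderm markers was above the dim level, and the part of endoderm was not tested. The differences of Lgr4, Lgr6 and Rspo1 were 0.06, 0.05 and 0.01.

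Frizzled and Lrp receptors held the member with the highest difference. Of 12 genes, all bright enough to test, 5 had a higher and 6 a lower knockout mean, and Fzd8 had 1 value throughout. The median difference was -0.01, and the class shift was -0.01 and 0.07 in knockout arrays 1 and 2, against -0.07 to 0.04 in controls.

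Fzd1, a receptor for canonical and other Wnt signals, was at 6.86, 6.78 and 6.44 in controls and 7.42 and 7.21 in knockouts. Both knockout arrays were above every control. The difference was 0.62 ± 0.16 (SE), a 1.54-fold higher level, with an unadjusted p of 0.017 and an adjusted p of 0.457 in limma. With array weights the unadjusted p was 0.0528. It was 0.113 without knockout array 1 and 0.0561 without knockout array 2, with differences of 0.52 and 0.73. Fzd4, a receptor important in blood vessels, was at 7.497, 7.301 and 7.206 in controls and 7.502 and 7.631 in knockouts. The first knockout array was barely above control replicate 1 (difference 0.23 ± 0.11, SE; unadjusted p 0.0982 in limma). Of 10 endothelial markers 6 had a higher and 4 a lower knockout mean. Their sum was 11.98 and 11.59 in knockout arrays 1 and 2, against 11.40 to 11.66 in controls. Their part in the Fzd1 and Fzd4 levels was not tested.

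Fzd3, a receptor of the cell polarity branch, was at 7.22, 7.13 and 7.05 in controls and 7.02 and 6.89 in knockouts, with a difference of -0.18 ± 0.08 (SE; unadjusted p 0.0779 in limma). Both knockout arrays were lower, the first only just. Fzd7 was at 5.677, 5.677 and 5.107 in controls, 5.68 in knockout array 1 and 6.41 in knockout array 2. The first knockout array equalled 2 controls to 3 decimals and the second was above all of them. The difference was 0.55 ± 0.32 (SE; adjusted p 0.57 in limma). The second array holds the endoderm markers, and their part in the Fzd7 level was not tested. Fzd2 was at 5.95 to 6.05 in controls, 5.49 in knockout array 1 and 6.22 in knockout array 2. The co-receptor Lrp6 lay between 8.42 and 8.58 on all arrays, and Lrp5 was at 6.53 in knockout array 1 and 6.93 in knockout array 2 against 6.74 to 6.77. Lrp6 differed by 0.08 (95% interval -0.06 to 0.21). Fzd5, Fzd6, Fzd9 and Fzd10 differed by -0.18 (Fzd9) to 0.04 (Fzd6), with the high value of Fzd9 in control replicate 1.

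Secreted antagonists, which bind Wnt proteins (Sfrp) or Lrp co-receptors (Dkk1, Dkk2 and Dkk4), gave the widest scatter between arrays. Of 8 genes, 2 had a higher and 6 a lower knockout mean, with a median difference of -0.09. The class shift was -0.47 in knockout array 1 and 0.24 in knockout array 2, against 0.00, 0.19 and -0.26 in control replicates 1, 2 and 3. The knockout arrays were therefore at the 2 ends, and the controls were themselves spread. Of 8 epicardial markers 4 had a higher and 4 a lower knockout mean. Their median shift was -0.04 in knockout array 1 and 0.31 in the other, against -0.17 to 0.08 in controls. Their summed level was 10.94 in knockout array 1 and 11.02 in knockout array 2, against 10.51 to 10.78 in controls. The sum includes Krt19, at 9.66 and 8.72 in knockout arrays 1 and 2 against 7.36 to 7.70 in controls. In knockout array 1 Wt1 and Msln were also above all controls, Tcf21, Upk3b and Upk1b below them, and Tbx18 and Aldh1a2 within their range. In knockout array 2 Wt1, Tbx18, Tcf21 and Upk3b were also above, Upk1b and Msln below and Aldh1a2 within. The part of the epicardial markers in the antagonist levels was not tested.

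Dkk3, a divergent family member that does not bind Lrp6 like its relatives, was at 6.399, 6.270 and 6.541 in controls, 7.304 in knockout array 1 and 6.564 in knockout array 2. The second knockout array only just exceeded the highest control. The difference of 0.53 ± 0.25 (SE) had an unadjusted p of 0.105 and an adjusted p of 0.57 in limma. It was 0.16 without knockout array 1 and 0.90 without knockout array 2. Dkk1 was at 5.871, 5.999 and 5.272 in controls and 4.992 and 6.127 in knockouts. Dkk2 was at 5.84, 6.36 and 5.44 in controls and 5.30 and 6.50 in knockouts. In both genes the lowest control was control replicate 3 and the highest control replicate 2, with knockout array 1 below and knockout array 2 above them. Sfrp2 showed the same order, at 5.27, 5.45 and 4.97 in controls and 4.27 and 5.82 in knockouts, the longest distance between knockout arrays among the tested members.

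Sfrp5, an antagonist of the inflow region of the heart, was at 5.17, 5.42 and 4.91 in controls, 4.42 in knockout array 1 and 5.17 in knockout array 2. The second knockout value equalled a control, and the difference of -0.37 ± 0.29 (SE) had an adjusted p of 0.593 in limma. Sfrp1 was at 8.02, 7.95 and 7.41 in controls and 7.44 and 8.12 in knockouts. Knockout replicate 1 was as low as control replicate 3, so the group means differed by -0.02 with a 95% interval of -0.87 to 0.84. Sfrp4 and Dkk4 were dim, at 3.95 to 4.23 and 3.87 to 4.09.

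**Figure D3:**
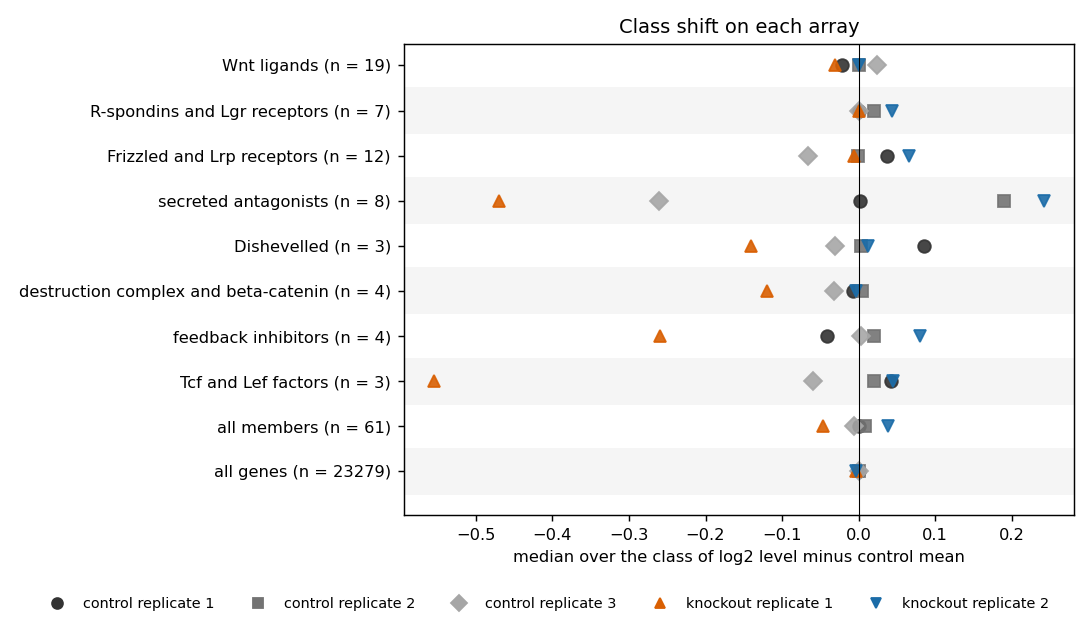
For each class of Wnt pathway genes, each mark gives the class shift on 1 array: the median over the class of log2 level minus the mean of the 3 controls; the number of genes stands beside the class name. Knockout replicate 1 lies left of all controls for 6 of the 8 classes: Tcf and Lef factors (-0.55), secreted antagonists (-0.47), feedback inhibitors (-0.26), Dishevelled (-0.14), the destruction complex (-0.12) and Wnt ligands (-0.03). Knockout replicate 2 lies left of all controls for none of the 8.

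Dishevelled proteins relay the signal from the receptor and are the reported partners of Lrrfip2. All 3 genes had a lower knockout mean, as did 54.4% of all genes tested, with a median of -0.09. Without knockout array 1 the class median was 0.01. Dvl3 was at 8.44, 8.45 and 8.44 in controls, 7.84 in knockout array 1 and 8.49 in knockout array 2. The controls were nearly equal, the first knockout array was lower and the second just above. With both arrays the difference was -0.28 ± 0.21 (SE; adjusted p 0.591 in limma). Dvl1 was at 5.99, 5.85 and 5.87 in controls and 5.76 and 5.87 in knockouts (-0.09; 95% interval -0.27 to 0.10), and Dvl2 differed by -0.02 (-0.205 to 0.171). Lrrfip1, the relative of Lrrfip2, was at 8.88 to 8.95 in controls and 9.34 and 8.70 in knockouts, and Flii, a binding partner of both, at 8.12 to 8.27 in controls and 7.92 and 8.12 in knockouts.

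Of the 4 genes of the destruction complex and β-catenin, 1 had a higher and 3 a lower knockout mean, with a median of -0.08. Ctnnb1, the gene for β-catenin, was at 9.82, 9.78 and 9.68 in controls and 9.66 and 9.86 in knockouts. The groups overlapped, and the 95% interval of the difference was -0.24 to 0.24. Axin2, a scaffold of the complex and the most widely used transcript readout of canonical signalling, was at 5.87, 6.12 and 5.64 in controls, 5.29 in knockout array 1 and 6.02 in knockout array 2. The first knockout array was below every control and the second among them, and the difference of -0.22 ± 0.28 (SE; 95% interval -1.01 to 0.56) had an adjusted p of 0.73 in limma. Axin1 was at 6.43, 6.47 and 6.81 in controls and 6.43 and 6.38 in knockouts, a difference of -0.17 ± 0.14 (SE). The scaffold gene Apc was at 7.68 to 7.70 in controls and 7.96 and 7.58 in knockouts.

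Feedback inhibitors, several of them β-catenin targets, dampen the pathway, Nkd1 and Nkd2 at Dishevelled and the ubiquitin ligases Rnf43 and Znrf3 at the receptors. Of the 4, 1 had a higher and 3 a lower knockout mean, with a median of -0.11. Their class shift was -0.26 in knockout array 1 and 0.08 in knockout array 2, against -0.04 to 0.02 in controls. Rnf43 was at 4.67, 4.77 and 4.77 in controls, 4.69 in knockout array 1 and 5.49 in knockout array 2, so that 1 array stood above the rest (difference 0.36 ± 0.26, SE; adjusted p 0.579 in limma). Znrf3 was at 6.71 to 6.72 in controls and 6.42 and 6.87 in knockouts. Nkd1 was at 5.92 to 5.94 in controls and 5.63 and 5.94 in knockouts. Nkd2 was at 4.53, 4.86 and 4.64 in controls and 4.46 and 4.53 in knockouts, a difference of -0.18 ± 0.11 (SE; adjusted p 0.57 in limma). For Nkd1 and Znrf3 the first knockout array was below controls that hardly varied. In each gene control replicates 2 and 3 had the same value, which for Nkd1 was also that of knockout array 2.

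Among Tcf/Lef factors, the DNA-binding partners of β-catenin, Lef1 gave the lowest difference of all members. It was at 7.52, 7.65 and 7.49 in controls and 6.38 and 7.04 in knockouts. Both knockout arrays were below every control, the first by more. Its mean was 1.80-fold lower: -0.85 ± 0.22 (SE; 95% interval -1.46 to -0.24), with an unadjusted p of 0.0179 and an adjusted p of 0.457 in limma. Without any 1 of the controls the difference was -0.88 to -0.80 with an unadjusted p of 0.0578 to 0.0658. Without knockout array 1 the difference was -0.52, and without knockout array 2 it was -1.18. Lef1 is itself a canonical target and is expressed in mesenchyme, and the cushion mesenchyme shift was -0.41 and -0.12 in knockout arrays 1 and 2, against 0.10, 0.08 and -0.17 in controls. The part of that tissue in the Lef1 level was not tested.

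The other factors did not separate the groups. Tcf7l1, mainly a repressor, was at 7.30, 7.26 and 7.17 in controls, 6.69 in knockout array 1 and 7.59 in knockout array 2, with a difference of -0.11 ± 0.29 (SE; adjusted p 0.884 in limma). Tcf7l2 was at 8.25, 7.95 and 8.42 in controls and 8.23 and 8.25 in knockouts, both within the control range. The antisense transcript Fzd10os was dim, at 4.36 or less, in controls and in knockout array 1, and at 4.87 in knockout array 2, while the receptor gene Fzd10 was at 4.79 to 4.84 in controls and 4.61 and 4.79 in knockouts.

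**Figure D4:**
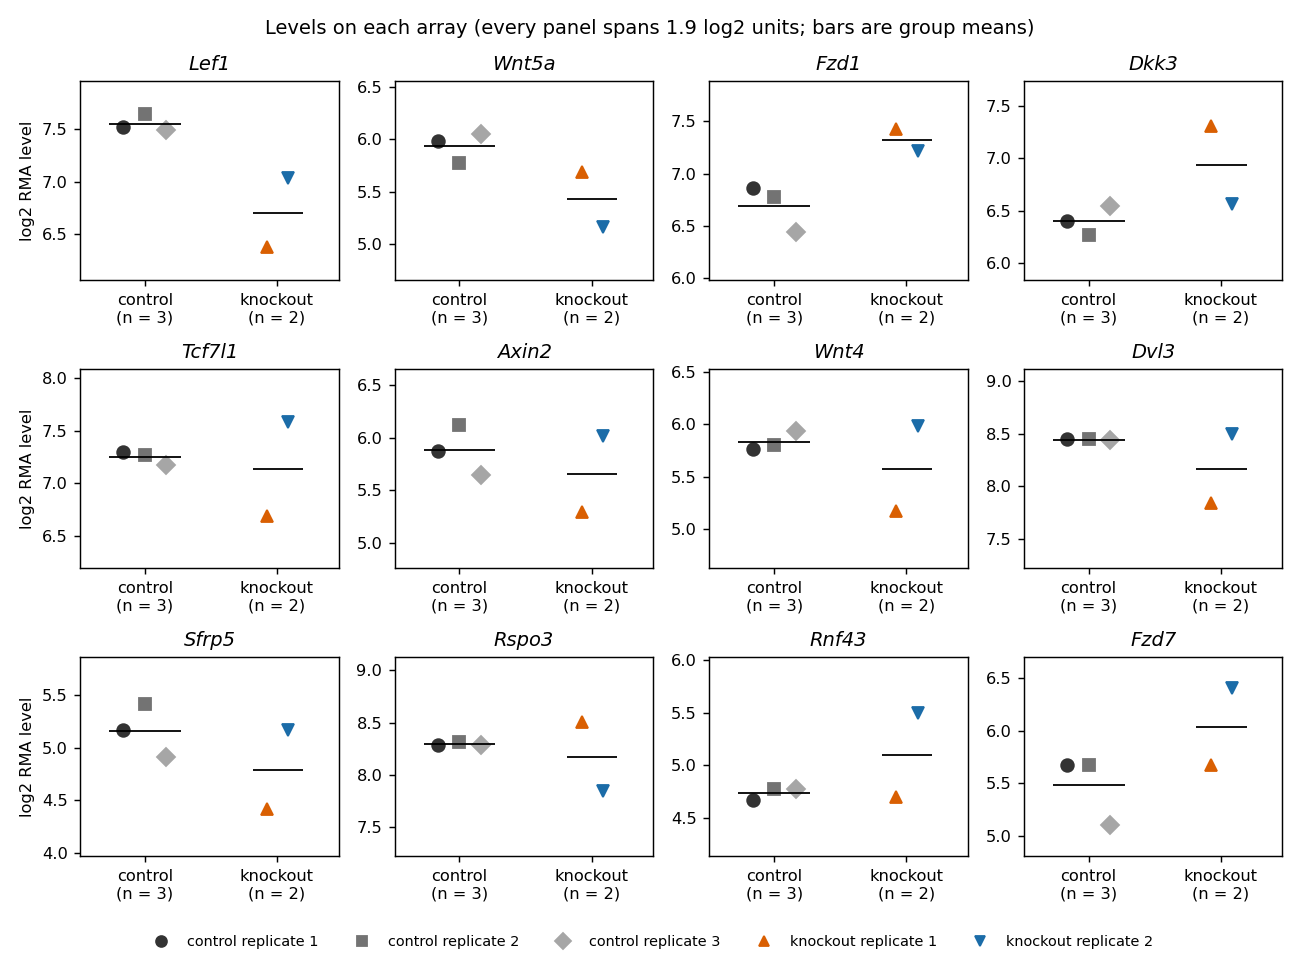
Log2 levels of 12 members on each array, with controls at the left and knockouts at the right of each panel and bars at the group means; every panel spans the same 1.9 log2 units. Lef1 and Wnt5a are lower and Fzd1 higher in both knockout arrays, Dkk3 only just in knockout replicate 2, and the other panels have 1 knockout array within the controls or the 2 on opposite sides.

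When knockout array 2, the array with endoderm markers, was left out, 7 of 48 members (14.6%) passed the adjusted threshold in limma, against 7.04% of all genes, and 15 (31.2%) had an unadjusted p under 0.05, against 27.3%. These were Lef1 (-1.18 ± 0.08, SE; adjusted p 0.0345), Dvl3 (-0.60; 0.0283), Fzd2 (-0.52; 0.0485), Nkd1 (-0.31; 0.0319), Wnt2b (-0.30; 0.0417), Znrf3 (-0.30; 0.0289) and Apc (0.28; 0.0331). This fit holds 1 knockout array, which is assumed to vary like the controls, so it describes knockout array 1 and not the genotype. Control replicates 1 and 2 had the same value for Apc and Wnt2b, and control replicates 2 and 3 for Nkd1 and Znrf3. Such ties narrow the spread on which the fit rests. Of the 7, Lef1 lay outside the controls on the same side in knockout array 2. Dvl3, Fzd2 and Znrf3 were above all controls there and Apc below them, in each case the side opposite to the first array. Without knockout array 1, 0 members passed, as against 0.0644% of all genes, and 11 had an unadjusted p under 0.05 (22.9%, against 17% of all genes).

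Further pathway genes from fixed lists gave a similar share of low p-values to all genes. Of 110 listed, 106 were measured and 94 tested. None of the 94 passed the adjusted threshold in limma, and 7 (7.45%) had an unadjusted p under 0.05, 4 higher and 3 lower, against 8.78% of all genes tested. In the list for Wnt secretion and extracellular control 1 of 13 was higher. In the list of further receptors and polarity genes 1 of 18 was lower. In the list for the destruction complex 1 of 23 was higher, in the nuclear list 1 was higher and 1 lower of 24, and among further targets 1 was higher and 1 lower of 16.

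The 7 were as follows. Porcn, the acyltransferase that lipid-modifies all Wnt proteins, was at 6.21, 6.30 and 6.32 in controls and 6.57 and 6.56 in knockouts (0.29 ± 0.05, SE; unadjusted p 0.00451 in limma). Tbl1x, a nuclear co-factor of β-catenin and of corepressors, was at 8.61 to 8.68 in controls and 8.87 in both knockouts (0.22 ± 0.04, SE; unadjusted p 0.00372 in limma). In both genes the knockout arrays lay closer together than the controls. Vangl1, a core polarity protein, was at 6.98, 6.92 and 6.78 in controls and 6.59 and 6.43 in knockouts (-0.38; unadjusted p 0.0125 in limma). Cby1, which binds β-catenin and limits its activity, was at 6.80 to 6.97 in controls and 6.55 and 6.63 in knockouts (-0.28). Tnks, the tankyrase that destabilises Axin, was at 8.26 to 8.43 in controls and 8.87 and 8.54 in knockouts (0.37). Of the targets, Myc was at 7.30, 7.25 and 7.75 in controls and 7.93 and 8.06 in knockouts (0.56), and Ccnd2, a cyclin of the G1 phase, at 10.26 to 10.38 and 10.12 to 10.14 (-0.18). With array weights the unadjusted p in limma was above 0.05 for Tnks (0.0797), Cby1 (0.051) and Ccnd2 (0.0806), and for Ccnd2 also after quantile normalization again (0.0766). With an array left out it reached 0.12 for Tnks, with a difference of 0.20 without knockout array 1. It reached 0.182 for Myc, 0.0916 for Cby1, 0.0866 for Ccnd2 and 0.0725 for Vangl1, while Porcn and Tbl1x stayed under 0.05 in each of these fits. Ccnd1, the other cyclin on the list, was at 8.99 to 9.16 in controls, 8.20 in knockout array 1 and 9.25 in knockout array 2. Myc and the cyclins answer to many signals besides Wnt.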

How the data were processed

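Total RNA (20 ng) of 5 E10.5 heart samples, extracted with Trizol, was amplified by the WT Plus method and labelled with biotin, per the labels' protocols. The authors deposited log2 levels per probe set, made with Affymetrix Expression Console and RMA per the submitters' processing notes; the sources used here give no version, setting or build. RMA scales arrays to each other, so global differences cannot be read, although array medians still ranged from 5.075 to 5.112. No scanner values were used. The precision is limited by having 5 arrays.

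Of 24479 probe sets, 23281 carried 1 symbol and 1198 none (platform annotation). The brightest set per gene was kept. Genes whose mean was under the 40th percentile were left out as dim. Knockout was compared with control by lmFit and eBayes in limma 3.58.1 (R 4.3.3), two-sided, adjusted by Benjamini-Hochberg over all genes tested; the steps were tested on simulated data. Tied levels were common, on 2 arrays or more for 35 of 61 members and for 14861 of all 23279 genes.

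Values on every array are given for members with an unadjusted p under 0.05, members without overlap and a difference of at least 0.3, and the 2 largest differences per class. For other pathway genes the rule was an unadjusted p under 0.05, at most 4 a list. Other genes were named after their values were seen. Members and lists were chosen with earlier results of these data known. Alternatives were other dim filters, a trended robust prior, array weights, renormalization, centring, averaged or unnamed probe sets, and leaving out each array. Replicate numbers follow accession order.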

Additional observations from a re-analysis of the deposited data

How the results depend on the processing

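No paired analysis was possible because the sample numbers in the labels are not shared between the groups. With 2 knockout arrays, the choice of array mattered most. Leaving out each array in turn gave 1 to 7 members higher and 0 to 12 lower at an unadjusted p under 0.05, and 0 to 7 past the adjusted threshold; the 7 came without knockout replicate 2. With array weights 0 members were higher, and after median centring 2 were lower. For other pathway genes the ranges were 2 to 13 higher, 2 to 28 lower and 0 to 11 past the adjusted threshold, and median centring gave 5 lower.

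The median over all members was -0.0253 after quantile normalization again, -0.0285 after centring and -0.0264 with bright members alone, and -0.0468 to 0.0379 with an array left out. For R-spondins and Lgr receptors it was 0.0276 after quantile normalization and 0.0343 with bright members alone. With an array left out, class medians were 0.00 to 0.0556 (R-spondins and Lgr receptors), -0.0544 to 0.00 (Wnt ligands), -0.0207 to 0.0653 (Frizzled and Lrp receptors), -0.4698 to 0.2419 (secreted antagonists), -0.1405 to 0.0128 (Dishevelled), -0.1203 to -0.0038 (destruction complex), -0.2595 to 0.0801 (feedback inhibitors) and -0.5544 to 0.0444 (Tcf and Lef factors).

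Of 27 named genes, 0 changed direction under the settings run that kept all arrays; for the dim Fzd10os and Lgr5 this was the fit with no dim filter alone. Arrays were left out for the other 25, and 8 of these changed direction without a knockout array. The ranges over left-out arrays were -0.5905 to 0.1422 for Axin2, -0.6038 to 0.0531 for Dvl3, -0.7481 to 0.0034 for Sfrp5, -0.5544 to 0.3406 for Tcf7l1, -0.6605 to 0.1462 for Wnt4, -0.2114 to 0.4225 for Lrrfip1, -0.0449 to 0.7552 for Rnf43 and -0.4484 to 0.2126 for Rspo3. The cause of these changes was not tested.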
